A study of Mus musculus with 12 samples.

Results

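Globins and 5 further genes of red cell differentiation were followed through RNA sequencing of cultured mouse bone marrow cells. The cells carried a fusion oncogene of leukaemia and, in addition, either PRDM16 or its mutant PRDM16mut. PRDM16 belongs to the PR domain family of zinc finger proteins, and the series title calls it a histone methyltransferase. The genes were chosen by symbol: the adult alpha globin copies Hba-a1 and Hba-a2, the adult beta globin copies Hbb-b1 and Hbb-b2, the carbonic anhydrases Car1 and Car2, the Rh-associated membrane glycoprotein Rhag, the erythropoietin receptor Epor and the erythroid haem synthesis enzyme Alas2. All 9 were present in each of 3 tables, among 22364 symbols common to the tables. Hba-a1 and Hba-a2 were summed, which leaves 8 values per library.

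Red cells fill with haemoglobin, a tetramer of alpha and beta globin chains that each hold a haem group. As a precursor matures, erythropoietin acts through Epor and JAK2-STAT5 signalling to keep it alive, and the factors Gata1, Tal1 and Klf1 drive the globin genes, the haem pathway and the proteins of the red cell membrane. Gfi1b is a repressor that the lineage also needs. Car1 and Car2 interconvert carbon dioxide and bicarbonate and are the classic carbonic anhydrases of red cells, while Rhag forms part of the Rh complex in the membrane. Car2 and Epor are also found in early progenitors, whereas abundant Alas2 and globin mark committed erythroid cells.

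The cells came from C57BL/6 bone marrow and grew in IMDM with 15% serum and with 3 cytokines (IL3, IL6 and SCF), each at 10 ng/ml. The labels name no erythropoietin. In the MLL-AF9 cotransduction (written MAF9 in the labels), lineage-negative marrow cells received the fusion MLL-AF9 together with PRDM16 or with PRDM16mut, and were taken after 10 days under G418 and puromycin. The E2A-HLF cotransduction was made the same way with the fusion E2A-HLF. For the MLL-AF9 stable cells, marrow cells that already carried MLL-AF9 received PRDM16 or PRDM16mut and were taken after 10 days under puromycin. Each of the 6 groups had 2 libraries, numbered 1 and 2. The labels do not state which change PRDM16mut carries, nor whether the libraries of a group came from separate cultures, so the p-values reflect the spread between libraries alone, and that spread may be technical. Every group carried one form of PRDM16, and each difference reported is PRDM16 minus PRDM16mut. The cells are bulk populations, in which fewer cells of a type and less RNA per cell cannot be told apart.

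Levels are FPKM, the fragments of a transcript per kilobase of its length, scaled to the size of the library. The deposited values of a library summed to between 570872 and 683269, and total depth is unknown because the tables hold no read counts. From the steps between low values, the PRDM16 pair of the MLL-AF9 cotransduction differed in depth, library 2 being 1.62 times as deep as library 1. The other 5 pairs lay between 0.913 and 1.17. Prdm16 itself was listed between 29.5 and 119 FPKM in all 12 libraries. It was higher with PRDM16 than with PRDM16mut in the MLL-AF9 cotransduction (83.9 and 119 against 29.5 and 30.1 FPKM), overlapped in the E2A-HLF cotransduction and was slightly lower in the stable cells (77.9 and 80.0 against 89.1 and 94.6 FPKM). The ribosomal entry Rn45s was listed at 0 in both PRDM16 libraries of the MLL-AF9 cotransduction and between 941 and 1554 FPKM in the other 10 libraries, so those 2 libraries stand apart from the rest in at least this entry. Every result for the MLL-AF9 cotransduction rests on them. Both cannot be left out at once. Fold changes with each left out are given below for Hbb-b1 and Hbb-b2, the members whose values moved most.

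The labels name marrow cells, lineage-negative in the cotransductions, and not erythroid cells, and the genes of red cell differentiation gave no single picture of them. Globins were abundant in both cotransductions, while several genes of late maturation stayed below 1 FPKM in all 12 libraries. Alas2 did not exceed 0.139 FPKM, Slc4a1, the anion exchanger band 3, did not exceed 0.0471, and Ank1, the membrane ankyrin, did not exceed 0.0950. Kel, the Kell antigen, reached 0.949 FPKM at most. Ahsp, the alpha globin chaperone, was looked for, but no entry was matched to it in the cotransductions, so it was not analysed.

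The alpha globin copies were summed because their transcripts can hardly be told apart. In the GENCODE annotation of GRCm38 their coding sequences are both 429 bases long and differ at 1 base, C381T, counted from the first base of the start codon with the base of Hba-a1 first. Of 380 windows of 50 bases in the coding sequence of Hba-a1, 331 (87.1%) occur unchanged in Hba-a2. The last 81 bases are shown for both copies, positions 349 to 429, because they hold the only difference, which is in capitals.
Hba-a1: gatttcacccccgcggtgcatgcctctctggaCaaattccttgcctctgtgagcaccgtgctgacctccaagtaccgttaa
Hba-a2: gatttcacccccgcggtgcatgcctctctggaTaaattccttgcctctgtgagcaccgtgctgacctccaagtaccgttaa

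The deposited split between the copies moved from library to library, while the sum differed far less within a group. In the E2A-HLF cotransduction, Hba-a1 was given 99.8% of the alpha globin FPKM in library 1 with PRDM16 and 0.633% in library 2, yet the sums were 18.6 and 18.1 FPKM. With PRDM16mut the same cells had 99.5% and 0.104% in Hba-a1. The MLL-AF9 cotransduction assigned 0% and 0.00466% to Hba-a1 with PRDM16, and 99.7% and 0.0950% with PRDM16mut. A fold change of Hba-a2 alone in that experiment, 5.51 on the log2 scale, therefore compares 271 and 249 FPKM with 0.0886 and 29.1 FPKM, where the first mutant library had its alpha globin filed under the other copy.

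The beta globin entries were split as well, though less completely. Hbb-b1 held 85.9% and 47.2% of their summed FPKM in libraries 1 and 2 with PRDM16 in the MLL-AF9 cotransduction, and 76.7% and 40.1% with PRDM16mut. The E2A-HLF cotransduction gave 68.5% and 25.8% with PRDM16, and 70.1% and 31.9% with PRDM16mut. In each of these 4 groups the share of Hbb-b1 was higher in library 1 than in library 2, and the summed beta globin varied much less. The C57BL/6 adult beta genes of the same annotation, Hbb-bs and Hbb-bt, have coding sequences of 444 bases that differ at 1 base. The tables carry a further adult beta entry, Beta-s, matched to Hbb-bs through RefSeq synonyms. How the 3 entries share the reads of these genes could not be established from the sources used here. Results for Hbb-b1 or Hbb-b2 alone are uncertain for this reason, and their sum is given beside them.

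**Figure D1:**
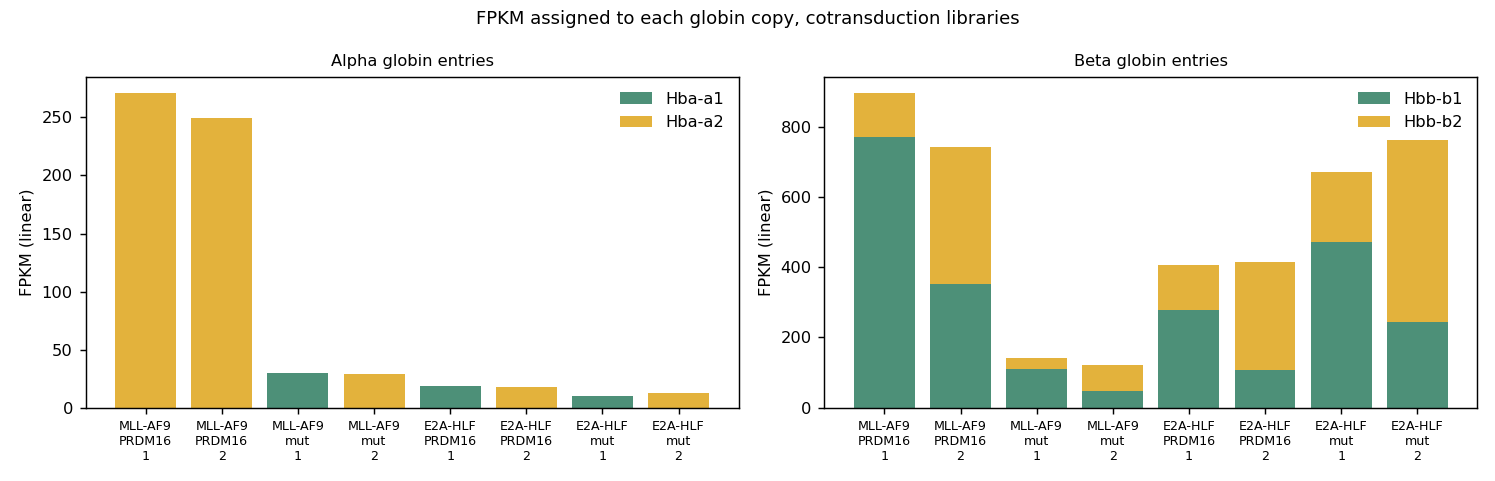
FPKM (linear axis) given to each globin copy in the 8 cotransduction libraries, alpha globin on the left and beta globin on the right, with the copies stacked so that the height of a bar is the sum. In 3 of the 4 groups the alpha bars change colour between the libraries at a similar height (18.6 and 18.1 FPKM with PRDM16 in the E2A-HLF cotransduction).

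With MLL-AF9 introduced together with PRDM16, alpha globin, beta globin, Car2, Rhag and Epor were all higher than with PRDM16mut. Of the 8 values, 6 reached the filter (1 FPKM or more in 2 or more of the 4 libraries) and could be tested, and all 6 were higher with PRDM16 (limma, Benjamini-Hochberg adjusted p under 0.05). Among all 11071 genes tested in that experiment, 69.6% passed by the same test, 35.6% higher and 34% lower, and the groups did not overlap for 86.3%, so that a call by itself was common. The median log2 fold change of the 6 was 2.499, against 0.01 for all genes tested. Car1 and Alas2 did not reach the filter.

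Alpha globin measured 271 and 249 FPKM with PRDM16 and 30.2 and 29.1 FPKM with PRDM16mut. Both PRDM16 libraries lay far above both mutant libraries, and the libraries of a group differed little. The means were 260 ± 15.4 and 29.6 ± 0.762 FPKM (SD, n = 2), a ratio of 8.78 and a log2 fold change of 3.09 with a standard error of 0.0620 (limma, adjusted p = 3.15e-06).

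Beta globin, as the sum of Hbb-b1 and Hbb-b2, measured 896 and 743 FPKM with PRDM16 and 142 and 121 FPKM with PRDM16mut. It was the most abundant of the values and rose by 2.62 on the log2 scale (standard error 0.118, ratio 6.21, limma adjusted p = 3.3e-05). Taken alone, Hbb-b1 measured 770 and 351 against 109 and 48.8 FPKM, and Hbb-b2 measured 126 and 392 against 33.2 and 72.7 FPKM. Neither entry overlapped between the groups, but the libraries of a group differed widely, with standard errors of 0.501 and 0.611 around log2 fold changes of 2.81 and 2.15 (adjusted p = 0.00457 and 0.0248). Without the filter on low values, neither entry passed (adjusted p = 0.0966 for Hbb-b1 and 0.220 for Hbb-b2), whereas their sum did (0.00887).

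Car2 measured 44.0 and 40.3 FPKM with PRDM16 and 5.87 and 5.79 FPKM with PRDM16mut. The groups were separated by a ratio of 7.23, with a log2 fold change of 2.66 and a standard error of 0.0654 (limma, adjusted p = 5.48e-06). Its relative Car1 stood at 0.425 and 0.453 FPKM with PRDM16 and at 0.0686 and 0 with PRDM16mut, below the filter in every library. Both carbonic anhydrases were thus higher in both PRDM16 libraries, Car1 at a level that was tested only without the filter (adjusted p = 0.0171).

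Rhag measured 16.8 and 15.9 FPKM with PRDM16, against 2.59 and 2.26 FPKM in the mutant libraries. It rose by 2.34 on the log2 scale (standard error 0.0744, ratio 6.73, limma adjusted p = 1.15e-05). Epor changed least of the 6, from 1.36 and 1.48 FPKM with PRDM16mut to 3.68 and 3.80 FPKM with PRDM16 (log2 fold change 0.97, standard error 0.0640, ratio 2.63, adjusted p = 0.000118). Alas2 lay the other way at very low values, with 0.0164 and 0.0302 FPKM with PRDM16 against 0.119 and 0.0600 with PRDM16mut. The PRDM16 libraries with most globin thus held least of the erythroid haem enzyme, at levels where Alas2 was near 0 in all 4. Tested without the filter, this difference in Alas2 did not pass (limma, adjusted p = 0.212). The count of 6 calls was the same with any 1 of the 4 libraries left out. The log2 fold change of Hbb-b2 was 1.34 without library 2 of PRDM16 and 2.97 without library 1 of PRDM16. Hbb-b1 moved the other way, to 3.38 without library 2 of PRDM16 and 2.25 without library 1 of PRDM16.

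**Figure D2:**
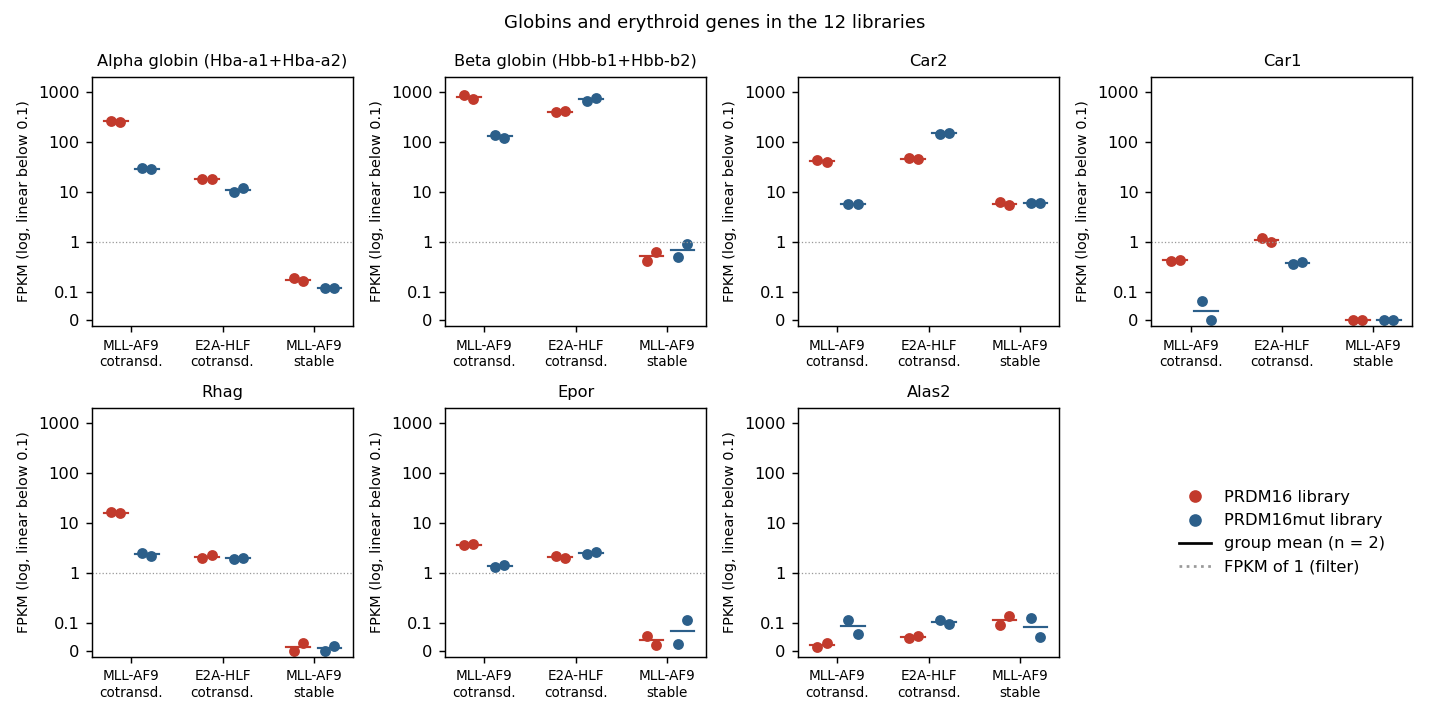
FPKM of each gene in the 12 libraries (logarithmic axis, linear below 0.1), with PRDM16 libraries in red, PRDM16mut libraries in blue, group means as short lines and the filter of 1 FPKM dotted. Car2 is highest with PRDM16mut in the E2A-HLF cotransduction (147 and 157 FPKM), while alpha globin is highest with PRDM16 in the MLL-AF9 cotransduction (271 and 249 FPKM).

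With E2A-HLF the genes did not move together. Alpha globin and Car1 were higher with PRDM16, Car2 was lower, and summed beta globin was lower. Of the 7 values tested singly, 2 were higher, 1 was lower and 4 did not pass (limma, adjusted p under 0.05), where 43.9% of all 11009 genes tested passed, 22.7% higher and 21.1% lower, and 73.7% did not overlap between the groups. The median log2 fold change of the 7 was -0.17, against 0.01 for all genes tested. Alas2 was again below the filter.

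Car2 measured 47.5 and 46.7 FPKM with PRDM16 and 147 and 157 FPKM with PRDM16mut. The mutant libraries were 3.23 times higher, and the log2 fold change was -1.67 with a standard error of 0.0478 (47.1 ± 0.569 against 152 ± 6.56 FPKM, limma adjusted p = 4.42e-06). This was the largest of the 7 fold changes, and its sign was opposite to that in the MLL-AF9 cotransduction. Car1 ran the other way from Car2, at 1.25 and 1.03 FPKM with PRDM16 against 0.365 and 0.404 in the mutant libraries. Its log2 fold change was 0.62 with a standard error of 0.0816 (adjusted p = 0.00175). It passed the filter only through the PRDM16 libraries and so could be tested only where that group was the higher one, and its log2 fold change was 1.35 with a pseudocount of 0.1 in place of 1.

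Alpha globin measured 18.6 and 18.1 FPKM with PRDM16 and 10.2 and 12.4 FPKM with PRDM16mut. The groups did not overlap, and the log2 fold change was 0.65 with a standard error of 0.0884 (ratio 1.62, limma adjusted p = 0.002). This call was lost without the filter on low values (adjusted p = 0.0803) and when the copies were tested separately (0.830 for Hba-a1 and 0.921 for Hba-a2).

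Summed beta globin went against alpha globin, with 407 and 415 FPKM with PRDM16 and 671 and 761 FPKM with PRDM16mut. Its log2 fold change was -0.80 with a standard error of 0.0750 (411 ± 5.81 against 716 ± 63.7 FPKM, limma adjusted p = 0.000435). The entries taken singly overlapped between the groups. Hbb-b1 measured 279 and 107 against 470 and 243 FPKM (log2 fold change -0.96, adjusted p = 0.164), and Hbb-b2 measured 128 and 308 against 200 and 518 FPKM (-0.70, adjusted p = 0.343). Both values moved with the library left out. Hbb-b1 passed without library 1 of PRDM16 (-1.65) or library 2 of PRDM16mut (-1.44) and stood at -0.28 and -0.49 without library 2 of PRDM16 or library 1 of PRDM16mut. Hbb-b2 passed without library 2 of PRDM16 (-1.32) or library 1 of PRDM16mut (-1.38) and stood at -0.07 and -0.01 without library 1 of PRDM16 or library 2 of PRDM16mut. Adding Beta-s to the sum, a choice made after seeing the data, left the log2 fold change at -0.78 (adjusted p = 0.000471).

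Rhag measured 1.99 and 2.31 FPKM with PRDM16 against 1.95 and 2.01 with PRDM16mut, overlapping values (log2 fold change 0.08, adjusted p = 0.424). Epor measured 2.24 and 2.004 against 2.39 and 2.64 FPKM, groups that did not overlap but whose difference of -0.17 did not pass (limma, adjusted p = 0.112). Alas2 stood at 0.0490 and 0.0534 FPKM with PRDM16 against 0.115 and 0.0974 with PRDM16mut, so that the PRDM16 libraries were the lower ones in both cotransductions, at levels below the filter. Tested without the filter, Alas2 did not pass with E2A-HLF either (limma, adjusted p = 0.0558).

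In the MLL-AF9 stable cells the genes were close to 0 with either form, apart from Car2. Alpha globin measured 0.196 and 0.167 FPKM with PRDM16 against 0.123 and 0.122 with PRDM16mut, and summed beta globin 0.435 and 0.637 against 0.507 and 0.915. Car1 was listed at 0 in all 4 libraries, Rhag did not exceed 0.0282, Epor 0.119 and Alas2 0.139 FPKM. Car2 measured 6.32 and 5.60 FPKM with PRDM16 against 6.15 and 6.18 with PRDM16mut, overlapping values with a log2 fold change of -0.04 (standard error 0.0599, limma adjusted p = 0.655). It was the only value that reached the filter, so 0 of 1 tested was called, against 6.36% of 10580 genes (4.2% higher, 2.16% lower, and 60.6% without overlap between the groups). With 5.60 FPKM, library 2 of PRDM16 was the lowest of the 4, and without it the log2 fold change was 0.03.

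**Figure D3:**
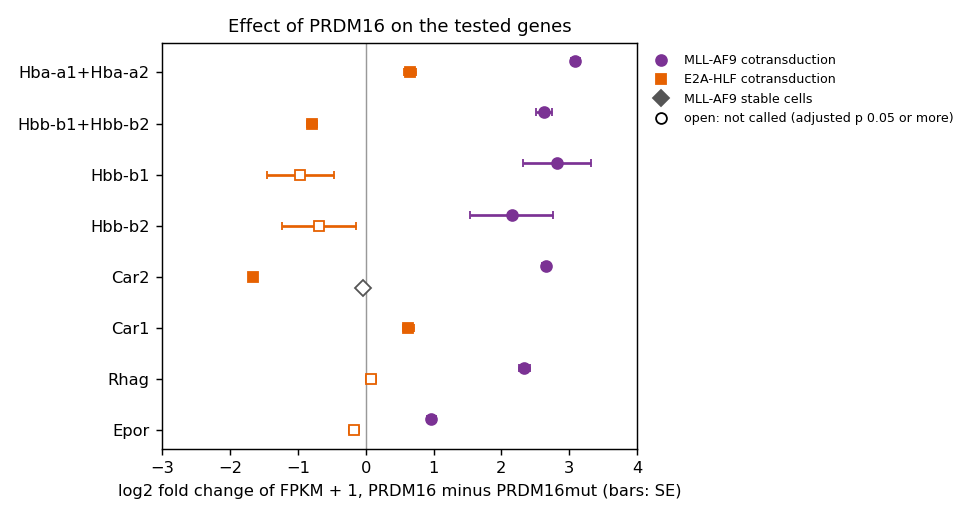
Log2 fold change of FPKM plus 1, PRDM16 minus PRDM16mut, with standard errors, for each value that could be tested in each experiment. Filled symbols passed an adjusted p under 0.05. The MLL-AF9 cotransduction points all lie to the right of 0 (0.97 to 3.09), while those of the E2A-HLF cotransduction run from -1.67 for Car2 to 0.65 for alpha globin.

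Whether the difference between PRDM16 and PRDM16mut depended on the experiment was tested as a difference of differences over 12 libraries. Over the genes that passed the filter in all 3 tables, Car2 was the only member that could be tested. Its effect was 4.33 higher in the MLL-AF9 than in the E2A-HLF cotransduction on the log2 scale (standard error 0.0832, limma adjusted p = 2.31e-11). It was 2.70 higher in the MLL-AF9 cotransduction than in the stable cells (adjusted p = 2.03e-09) and 1.62 lower in the E2A-HLF cotransduction than in the stable cells (difference -1.62, adjusted p = 1.88e-07). By the same test 71.4%, 64% and 37.1% of 9489 genes differed for these 3 pairs.

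Admitting genes that passed in both cotransductions, a choice made after seeing the data, brought in the other members except Car1 and Alas2. Between the 2 cotransductions the effect differed by 2.44 for alpha globin (standard error 0.107, limma adjusted p = 1.37e-08) and by 3.42 for summed beta globin (0.184, adjusted p = 6.19e-08). It differed by 2.26 for Rhag (0.0959, adjusted p = 1.06e-08) and by 1.14 for Epor (0.0961, adjusted p = 2.07e-06). Single entries gave 3.78 for Hbb-b1 (adjusted p = 0.00126) and 2.85 for Hbb-b2 (adjusted p = 0.0174). Every one of these was larger in the MLL-AF9 cotransduction, in a setting where 72.5% of 10007 genes differed. The ratio of Prdm16 itself, PRDM16 over PRDM16mut, was 3.41 in the MLL-AF9 and 1.06 in the E2A-HLF cotransduction. The fusion cannot be told apart from this or from other differences between the experiments.

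The order of the 6 groups differed from gene to gene. The tables were normalized separately, so levels across experiments are given as a description. Alpha globin ran from the MLL-AF9 cotransduction with PRDM16 (260 FPKM) through its PRDM16mut group (29.6), E2A-HLF with PRDM16 (18.3) and E2A-HLF with PRDM16mut (11.3) to the stable cells (0.181 with PRDM16 and 0.122 with PRDM16mut), and no neighbours in this order overlapped. Summed beta globin was highest in the MLL-AF9 cotransduction with PRDM16 (819 FPKM) and in E2A-HLF with PRDM16mut (716), whose libraries overlapped, followed by E2A-HLF with PRDM16 (411), the MLL-AF9 cotransduction with PRDM16mut (132) and the stable cells. Car2 was led by E2A-HLF with PRDM16mut (152 FPKM), then E2A-HLF with PRDM16 (47.1) and the MLL-AF9 cotransduction with PRDM16 (42.2), and the remaining 3 groups overlapped their neighbours between 5.83 and 6.17 FPKM.

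For Rhag the MLL-AF9 cotransduction with PRDM16 stood alone at 16.3 FPKM, and the other 3 cotransduction groups overlapped their neighbours between 1.98 and 2.43. Epor ran from 3.74 FPKM there through 2.51 and 2.12 in E2A-HLF with PRDM16mut and PRDM16 to 1.42 in the MLL-AF9 cotransduction with PRDM16mut, without overlap. Car1 was highest in E2A-HLF with PRDM16 (1.14 FPKM). Alas2 lay between 0.0233 and 0.117 FPKM on average in all 6 groups, and each group overlapped the next in order except for the lowest pair.

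The 2 chains of haemoglobin were far from balanced in the FPKM values. Summed beta globin was 3.31 and 2.98 times alpha globin with PRDM16 in the MLL-AF9 cotransduction and 4.72 and 4.18 times with PRDM16mut. In the E2A-HLF cotransduction the ratio was 21.9 and 22.9 with PRDM16 and 65.6 and 61.2 with PRDM16mut. In both experiments the PRDM16 libraries had the lower ratios. These are ratios of per-length values and rest on how fragments of near-identical copies were assigned.

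Other globins accompanied the adult ones in part. The counts for this and the further gene lists stand against 69.6% of all genes called in the MLL-AF9 cotransduction, 43.9% in the E2A-HLF cotransduction and 6.36% in the stable cells. They include genes that reached the filter only through the group where they were higher and so could be called only in that direction. Of the globin list, 7 values were tested in the MLL-AF9 cotransduction, of which 5 were higher, 1 was lower and 1 did not pass, with a median log2 fold change of 2.07 against 0.01 for all genes tested. Hbb-y, the embryonic beta-like globin, measured 67.5 and 59.7 FPKM with PRDM16 against 41.3 and 39.9 with PRDM16mut, a smaller change of 0.63 (limma, adjusted p = 0.000946). It made up 7.01% and 7.44% of Hbb-b1, Hbb-b2 and Hbb-y together with PRDM16, and 22.5% and 24.7% with PRDM16mut. Hbq1b, a theta globin, rose by 2.07 (8.75 and 7.15 against 1.29 and 0.963 FPKM, adjusted p = 7.61e-05), and needed the PRDM16 libraries to pass the filter. Hba-x, the embryonic zeta globin, fell by 0.68 on the log2 scale (0.333 and 0.667 against 1.23 and 1.55 FPKM, adjusted p = 0.00617), having passed the filter only through the PRDM16mut libraries. Beta-s did not follow Hbb-b1 and Hbb-b2, with 12.1 and 9.02 against 12.7 and 11.3 FPKM (adjusted p = 0.296).

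Of 5 globin values tested with E2A-HLF, 2 were higher and 3 did not pass, with a median of -0.50. Besides alpha globin the higher one was Beta-s, at 5.76 and 6.68 FPKM with PRDM16 against 3.11 and 3.34 with PRDM16mut (log2 fold change 0.77, limma adjusted p = 0.00067), opposite to the sum of Hbb-b1 and Hbb-b2. Hbb-y stayed low, with 3.41 and 5.11 against 5.52 and 7.29 FPKM (adjusted p = 0.0661), and made up 0.817% to 1.22% of the same beta sum. No globin reached the filter in the stable cells.

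Carbonic anhydrases as a family did not share the direction of Car2. In the MLL-AF9 cotransduction 6 were tested, 3 higher, 2 lower and 1 not passing (median log2 fold change 0.32). Car13, a cytosolic form like Car2, rose by 1.53 (18.7 and 17.7 against 5.99 and 5.31 FPKM, limma adjusted p = 4.32e-05). Car4, a membrane-anchored form, fell by 4.68 on the log2 scale, from 24.1 and 26.4 FPKM to 0.0257 and 0.0158 (adjusted p = 1.56e-06), and Car8, a relative without enzyme activity, fell by 2.46 (adjusted p = 5.09e-06). Both passed the filter only through the PRDM16mut libraries. With E2A-HLF the counts were again 3 higher, 2 lower and 1 not passing. Car4 rose by 4.56 (97.5 and 95.5 against 2.80 and 3.49 FPKM, adjusted p = 1.22e-06) and Car13 fell by 0.87 on the log2 scale (0.791 and 0.935 against 2.46 and 2.33 FPKM, adjusted p = 0.00029), having passed the filter only through the PRDM16mut libraries. The effect on Car13 differed between the cotransductions by 2.40 and that on Car4 by -9.25 in the test of the difference (limma, adjusted p = 6.07e-09 and 7.92e-12). That test was over genes passing in both tables. None of 5 carbonic anhydrases tested passed in the stable cells.

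The genes of haem synthesis were divided. In the MLL-AF9 cotransduction 5 of 13 tested were higher, 3 lower and 5 did not pass, with a median of 0.08. Alas1, the housekeeping form of the first enzyme, fell by 1.31 on the log2 scale (53.2 and 59.9 against 141 and 142 FPKM, limma adjusted p = 5.77e-05), and Slc25a37, mitoferrin, fell by 1.57 (adjusted p = 2.75e-05). Alad rose by 0.85 (adjusted p = 0.000206), Fech, which inserts iron into the ring, by 0.29 (adjusted p = 0.00932) and Abcb10 by 0.49 (adjusted p = 0.000743). With E2A-HLF 4 of 13 were higher, 1 lower and 8 did not pass. Alas1 rose by 1.15 there (25.0 and 24.2 against 10.5 and 10.5 FPKM, adjusted p = 1.39e-05), Slc25a37 rose by 0.36, Abcb10 by 0.26, and Alad fell by 0.29 on the log2 scale. Fech did not pass (adjusted p = 0.814). In the stable cells 1 of 13 passed, Abcb10 at -0.23 (adjusted p = 0.0481).

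Among red cell membrane genes other than Rhag, most were not expressed at a testable level. Of 20 listed, 8 were tested in the MLL-AF9 cotransduction, 5 higher including Rhag, 2 lower and 1 not passing, with a median of 0.44. Icam4, the LW blood group adhesion molecule, rose by 1.59 (5.80 and 6.80 against 1.52 and 1.32 FPKM, limma adjusted p = 7.59e-05). Mpp1, a membrane scaffold protein also found outside red cells, fell by 1.01 on the log2 scale (44.7 and 45.5 against 92.8 and 91.1 FPKM, adjusted p = 4.2e-05). With E2A-HLF 2 were higher, 1 was lower and 5 did not pass: Mpp1 rose by 1.02 (37.7 and 39.2 against 18.0 and 18.9 FPKM, adjusted p = 2.98e-05), Aqp1, the water channel, rose by 0.75 after passing the filter only through the PRDM16 libraries, and Xk, partner of Kell, fell by 0.47 on the log2 scale. Xk was also the 1 of 5 called in the stable cells (-0.21, adjusted p = 0.0465).

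Of 13 genes of red cell maturation tested in the MLL-AF9 cotransduction, 11 were higher and 2 lower, with a median of 0.74, where 35.6% of all genes were called higher and 34% lower. Tfr2, transferrin receptor 2, rose by 2.57 (9.73 and 11.7 against 1.06 and 0.881 FPKM, limma adjusted p = 2.48e-05), the ubiquitin-conjugating enzyme Ube2l6 by 2.23 (27.9 and 29.9 against 5.33 and 5.42 FPKM, adjusted p = 7.96e-06) and Hemgn, hemogen, by 1.63 (3.57 and 3.88 against 0.454 and 0.592 FPKM, adjusted p = 3.9e-05). Hemgn, and Trim58 among the other higher genes, passed the filter only through the PRDM16 libraries. Tfr2 also needed those libraries to pass, since 0.881 FPKM lies below 1. Fam132b, called lower, passed only through the PRDM16mut libraries. The antioxidant Prdx2, abundant in red cells, rose by 1.25 (255 and 269 against 108 and 111 FPKM, adjusted p = 2.82e-05). Tfrc, the main transferrin receptor, fell by 0.70 on the log2 scale (adjusted p = 0.000653). With E2A-HLF 2 of 12 were higher, 6 lower and 4 did not pass, with a median of -0.24. Ube2l6 fell by 2.34 on the log2 scale (2.35 and 3.09 against 17.2 and 18.3 FPKM, adjusted p = 2.1e-05), and transferrin receptor 2, entered as Trfr2 in that table, fell by 0.68. Tfrc rose by 0.44, and Hemgn did not pass (1.41 and 1.67 against 1.88 and 2.003 FPKM, adjusted p = 0.0703). In the stable cells 2 of 11 passed, Bnip3l at 0.31 and Tfrc at -0.14 (adjusted p = 0.00962 and 0.0499).

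In erythropoietin signalling, 9 of 12 genes tested were higher under MLL-AF9 with 1 lower and 2 not passing, Epor itself among the 9 (median 0.41), beside 35.6% higher and 34% lower of all genes. Bcl2l1, the survival gene of the pathway, rose by 0.94 (43.3 and 48.7 against 23.3 and 23.4 FPKM, limma adjusted p = 0.000188) and Stat5a by 0.92 (18.5 and 20.0 against 9.64 and 9.69 FPKM, adjusted p = 0.000125). Kit, the SCF receptor, which is lost as red cell precursors mature but also marks mast cells and stem cells, fell by 2.85 on the log2 scale (5.29 and 6.07 against 46.8 and 47.5 FPKM, adjusted p = 6.48e-06). With E2A-HLF 3 were higher, 3 lower and 6 did not pass (median -0.11). Bcl2l1 rose by 0.80 (adjusted p = 0.000143) and Cish, a STAT5 target, by 0.62 (adjusted p = 0.000168), while Socs3 fell by 0.77 on the log2 scale (adjusted p = 9.9e-05). Only Cish passed of 11 in the stable cells (0.19, adjusted p = 0.0386).

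The transcription factors of the lineage were measured in both cotransductions. Under MLL-AF9 12 of 18 were higher, 4 lower and 2 did not pass, with a median of 0.66, beside the same 35.6% and 34% of all genes. Zfpm1, the FOG-1 partner of Gata1, rose by 2.84 (33.6 and 44.1 against 4.53 and 4.53 FPKM, limma adjusted p = 3.56e-05), Gfi1b by 1.95 (16.3 and 19.7 against 3.91 and 3.88 FPKM, adjusted p = 4.81e-05) and Tal1 by 1.83 (36.1 and 36.5 against 9.76 and 9.31 FPKM, adjusted p = 1.02e-05). Gata1 rose by 0.79 (18.3 and 19.7 against 10.4 and 10.7 FPKM, adjusted p = 0.000215) and Klf1, the factor most directly tied to adult beta globin, by 0.45 from a low level (1.997 and 2.38 against 1.25 and 1.40 FPKM, adjusted p = 0.00528). Lmo2, which bridges Tal1 and Gata1, fell by 1.33 on the log2 scale (adjusted p = 4.08e-05). These factors act in megakaryocytes, mast cells and progenitors as well as in red cells.

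With E2A-HLF, 6 of 17 regulators were higher, 4 lower and 7 did not pass, with a median of 0.02. Gfi1b rose by 1.03 (13.1 and 12.99 against 5.87 and 5.95 FPKM, limma adjusted p = 3.05e-05), Klf1 by 0.46 (2.12 and 2.28 against 1.45 and 1.2 FPKM, adjusted p = 0.00528) and Gata1 by 0.40 (7.02 and 6.80 against 4.69 and 5.31 FPKM, adjusted p = 0.00544). Bcl11a, a repressor of embryonic and fetal globins, fell by 0.77 on the log2 scale (4.23 and 4.36 against 7.92 and 8.18 FPKM, adjusted p = 0.000142), where it had risen by 0.997 under MLL-AF9 from 0.280 and 0.225 to 1.42 and 1.58 FPKM, passing the filter there only through the PRDM16 libraries. Tal1 overlapped between the groups (11.1 and 11.3 against 11.1 and 10.9 FPKM, adjusted p = 0.692). None of 11 regulators tested passed in the stable cells, where Tal1 did not exceed 0.0392 FPKM and Klf1 did not exceed 0.572.

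**Figure D4:**
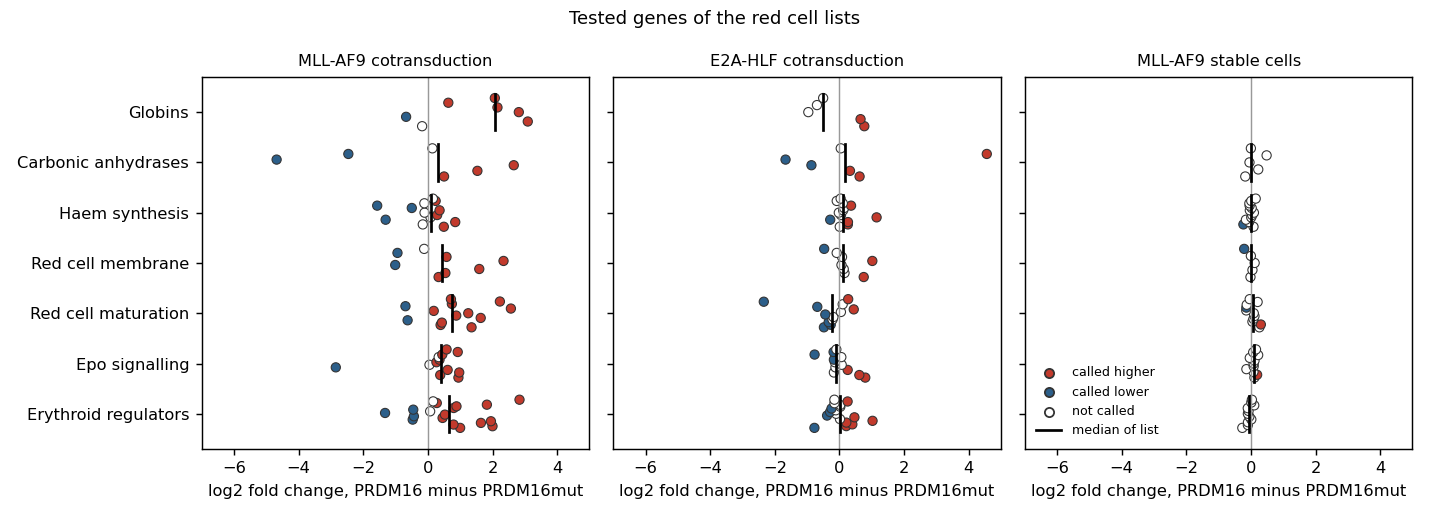
Log2 fold change (PRDM16 minus PRDM16mut) of every tested gene of the 7 red cell lists in the 3 experiments, coloured by whether it was called higher, lower or not called, with the list median as a black line. The globin median stands at 2.07 in the MLL-AF9 cotransduction and at -0.50 in the E2A-HLF cotransduction, and no globin was tested in the stable cells.

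Markers of other marrow cells moved in the same comparisons. In the MLL-AF9 cotransduction 35.6% of all genes tested were called higher and 34% lower. The marker counts include genes that reached the filter only through the group where they were higher, such as Mcpt4 and Cma1, which were lower with PRDM16. In the MLL-AF9 cotransduction all 12 neutrophil markers tested were lower with PRDM16, their summed level being 1442 and 1374 against 54580 and 53500 FPKM. Most of the PRDM16mut sum came from S100a8 (503 and 402 against 29620 and 28541 FPKM) and S100a9 (181 and 167 against 15489 and 15566 FPKM). Of 13 eosinophil, basophil and mast cell markers 12 were lower (summed 252 and 252 against 2991 and 2954 FPKM), and of 12 macrophage markers 8 were higher and 3 lower (summed 788 and 846 against 308 and 308 FPKM). Megakaryocyte markers were divided, 5 higher and 4 lower of 9, with summed levels of 115 and 122 against 128 and 125 FPKM and Gp6, Gp1bb and Treml1 below 0.5 FPKM. Their part in the globin result was not tested.

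With E2A-HLF, 9 of 10 neutrophil markers tested were higher with PRDM16 (summed 2117 and 2017 against 677 and 692 FPKM), as were 6 of 8 eosinophil, basophil and mast cell markers (202 and 197 against 153 and 159 FPKM) and 3 of 5 macrophage markers (291 and 297 against 72.7 and 74.6 FPKM). Of all genes tested there, 22.7% were called higher and 21.1% lower. Among the higher markers, Ngp, Cebpe, Mmp8, Prg2, Ms4a2 and Hdc needed the PRDM16 libraries to pass the filter, and so could be called only in that direction. Most of the difference in the macrophage sum came from Vcam1 (188 and 197 against 3.77 and 3.83 FPKM), an adhesion molecule also found on other cells. In these lists, Camp and Ltf of the neutrophil list, Epx, Il5ra, Mcpt4, Tpsb2 and Tpsab1 of the eosinophil, basophil and mast cell list, and Csf1r, C1qa, C1qb, C1qc, Mrc1 and Spic of the macrophage list were below 0.5 FPKM in each of the 4 E2A-HLF libraries. Megakaryocyte markers had 5 higher and 3 lower of 8 and overlapping sums (599 and 570 against 577 and 625 FPKM), with Vwf, Gp6, Gp1bb and Treml1 below 0.5 FPKM. The part of these cells in the opposite movement of Car2 and alpha globin was not tested. Among B cell markers, Ms4a1, Pax5 and Ebf1 were below 0.5 FPKM in all experiments. Cd79b, the only one tested, was lower with PRDM16 under E2A-HLF (4.55 and 4.18 against 10.2 and 9.88 FPKM, log2 fold change -1.04, limma adjusted p = 6.26e-05) and did not pass in the other experiments. The stable cells held neutrophil markers at 16220 and 16340 FPKM with PRDM16 against 15540 and 16140 with PRDM16mut. Of these 12 markers 0 were called higher, 2 lower and 10 did not pass, where 6.36% of all genes were called. Megakaryocyte markers stood at 10.2 to 12.5 FPKM, with 1 of 3 tested higher, and 1 of 11 macrophage markers was higher.

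The genes with the profile most like each of 2 members were listed over the 12 libraries. For alpha globin these were Rab19 (Pearson r = 0.999), H2-T23 (0.995), Ptprj (0.993), Cdkn2b (0.993) and Mdfic (0.993), of 8403 genes ranked. For Car2 they were Ptprk (0.998), Serpinb6b (0.997), Sesn1 (0.996), Repin1 (0.994) and Arhgap12 (0.992). The 12 points fall into 6 groups and 3 separately scaled tables, so these values mainly describe how the group means line up. Rab19, a small GTPase, ran from 14.4 FPKM with PRDM16 and 5.17 with PRDM16mut under MLL-AF9 through 4.11 and 3.37 under E2A-HLF to 0.467 and 0.535 in the stable cells, and Ptprk, a receptor phosphatase, from 2.14 and 0.0321 through 2.23 and 6.37 to 0.0023 and 0.00635. None of the 10 is a member of the red cell lists.

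The RefSeq promoter table of build GRCm38.p6 held 5 of the 9 genes, Hba-a1, Hba-a2, Rhag, Epor and Alas2, and not Hbb-b1, Hbb-b2, Car1 or Car2. Over their shared 247 bases, the windows before Hba-a1 and Hba-a2 are identical, so 1 is shown. The 250 bases before the start are printed for Hba-a1, whose sum with Hba-a2 was higher with PRDM16 under MLL-AF9. They are also printed for Rhag and Epor, which were higher in that comparison, and for Alas2, which stayed near 0. Capitals mark a GATA word (AGATAA as well as AGATAG, and TGATAA as well as TGATAG, on either strand), the letters that Gata1 and its relatives read.
Hba-a1, chr11:32283422-32283671, plus strand: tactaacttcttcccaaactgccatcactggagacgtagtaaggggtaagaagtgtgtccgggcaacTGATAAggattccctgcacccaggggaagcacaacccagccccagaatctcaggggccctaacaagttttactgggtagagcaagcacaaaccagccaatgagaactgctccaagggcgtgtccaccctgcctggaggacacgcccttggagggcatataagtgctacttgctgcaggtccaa
Rhag, chr17:40810899-40811148, plus strand: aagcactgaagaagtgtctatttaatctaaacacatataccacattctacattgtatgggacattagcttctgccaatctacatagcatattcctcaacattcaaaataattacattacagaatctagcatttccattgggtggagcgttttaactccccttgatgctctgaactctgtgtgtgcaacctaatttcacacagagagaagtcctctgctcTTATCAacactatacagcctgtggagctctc
Epor, chr9:21963577-21963826, minus strand: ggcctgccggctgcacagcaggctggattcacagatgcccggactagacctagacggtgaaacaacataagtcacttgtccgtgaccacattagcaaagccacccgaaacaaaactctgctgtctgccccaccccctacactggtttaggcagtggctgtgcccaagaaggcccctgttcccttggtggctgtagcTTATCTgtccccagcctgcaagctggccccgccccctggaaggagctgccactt
Alas2, chrX:150547167-150547416, plus strand: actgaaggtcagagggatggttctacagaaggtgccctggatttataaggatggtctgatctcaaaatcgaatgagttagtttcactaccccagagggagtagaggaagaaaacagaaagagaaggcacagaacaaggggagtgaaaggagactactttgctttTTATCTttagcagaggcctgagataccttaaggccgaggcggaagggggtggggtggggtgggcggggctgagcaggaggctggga

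Each of the 5 windows held 1 GATA word, whose first base lies at -183 in Hba-a1, -186 in Hba-a2, -31 in Rhag, -54 in Epor and -86 in Alas2 relative to the start. Of all 32851 windows of the same length, 26.5% held such a word. The CACCC words CCACCC and CCNCNCCC, which Klf1 and related factors read, overlapped each other and were present in all 5 (1 in each alpha globin copy and in Rhag, 6 in Epor and 7 in Alas2), as in 54.2% of all windows. The word AATCACNGC, read by Gfi1 and Gfi1b, was in none of the 5 and in 0.776% of all windows, and its core AATC was in all 5 and in 69%. TATAAA was in Alas2 alone, on the strand opposite to the printed one with its first printed base at -209, and in 12.4% of all windows. The exact word does not count near matches, such as tataag in the Hba-a1 window. The matches are descriptions of letters near the start, and their part in the levels of these genes was not tested.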

How the data were processed

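RNA from 12 libraries of cultured mouse marrow cells (oligo(dT)-primed TruSeq v2) was measured as FPKM, which the authors deposited as 3 tables, 1 per experiment. Per the submitters' processing notes the tools were Bowtie2 2.0.0.7, TopHat2 2.0.3 and Cuffdiff (no version stated), with build mm9. The sources used here do not give the annotation, the scaling between libraries, the read length or the treatment of reads shared by near-identical copies.

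Each table was fitted alone with limma 3.58.1 in R 4.3.3 (trended moderated variance, two-sided) on log2 of FPKM plus 1, for genes reaching 1 FPKM in 2 or more of 4 libraries. Adjustment was by Benjamini-Hochberg over all genes tested, with a threshold of 0.05. The pseudocount shrinks the fold change of low genes. The smallest p of an exact permutation test with 2 libraries a group is 0.333. Differences between experiments were contrasts in 1 fit of 12 libraries. Hba-a1 and Hba-a2 were summed before the filter. The fit was also run on simulated data with independent errors drawn from the spread between libraries, which cannot show whether that spread is technical. Relative depth came from low values (under 0.05 FPKM), where 79.9% to 84.6% of the ratios between paired libraries matched whole-number ratios (numbers up to 6, tolerance 0.5%).

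Members, lists, motifs and tests were chosen with earlier results of these data known. Named genes are all members, the called gene of each list with the largest rise and fall and up to 2 more of smallest p, Gata1, Klf1, Tal1, Gfi1b, Hemgn, Slc4a1, Kel, Ank1 and Fech where measured (some other genes of this rule are not reported here), and the 5 genes most like alpha globin and Car2 (5 FPKM or more in 2 or more libraries). Beta-s in the MLL-AF9 cotransduction was named after its values were seen. List genes were matched through RefSeq synonyms, since the tables name some genes differently. The alternatives were other pseudocounts, filters, scaling, shared spread, a replicate block, separate or summed copies, and leaving out each library.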

Additional observations from a re-analysis of the deposited data

Results flagged for a closer look

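The effect of PRDM16 against PRDM16mut differed between experiments for all the members that could be compared, by a test of the difference itself (limma, 12 libraries). For Car2 the difference of log2 fold changes was 4.33 between the MLL-AF9 and E2A-HLF cotransductions, 2.70 between the MLL-AF9 cotransduction and the stable cells, and -1.62 between E2A-HLF and the stable cells. Between the cotransductions it was 2.44 for alpha globin, 3.78 for Hbb-b1, 2.85 for Hbb-b2, 2.26 for Rhag and 1.14 for Epor, the last 5 over genes that passed the filter in both tables, a set chosen after seeing the data. As 71.4% and 72.5% of all genes also differed between the cotransductions in these tests, the calls do not set the members apart.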

How the results depend on the processing

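Of 148 recomputed fold changes, 132 kept their direction and side of the threshold, 10 passed newly, 5 lost their call and 1 changed sign (Car2 in the stable cells, not called in any setting, at 0.0300 without library 2 of PRDM16 and -0.12 without library 1 of PRDM16, the range over single libraries left out). The members called in the MLL-AF9 cotransduction numbered 5 or 6 in place of 6 under all settings but 1. Without the filter on low values the 5 were not a subset of the 6. Hbb-b1 and Hbb-b2 lost their calls, and Car1, untested otherwise, was called higher (limma, adjusted p = 0.0171). The share of all genes called also moved, with 6927 of 23308 called without the filter against 7701 of 11071 in the main setting. In the remaining setting the spread was shared over 12 libraries, and Car2 was the only member that passed in all 3 tables and could be tested. It was called in both cotransductions. All genes called in that setting numbered 7139 of 9489 in the MLL-AF9 cotransduction and 4242 of 9489 in the E2A-HLF cotransduction. All genes called in the stable cells numbered 673, but 104 without the filter on low values, 299 with the shared spread, and 67 to 219 with 1 library left out. Of those called genes, 66% were higher with PRDM16, 51.6% after quantile normalization and 21.2% without the filter. Tests of a difference between experiments that passed for a member rose from 3 to 8 when genes needed to pass only in both tables compared, and were 8 with the replicate block added to that. The library numbers shared by the groups are not stated to mark a pairing, and the deviations of same-numbered libraries correlated at 0.0691, 0.262 and 0.319 in the 3 experiments. With the number as a replicate block, the members called with E2A-HLF numbered 5 in place of 3, beside 4355 of 11009 genes called. Hbb-b1 and Hbb-b2 were then lower (limma, adjusted p = 0.00037 and 0.000416), and no other member's call changed. No counting interval could be given, as depth is unknown, and genes below the filter were tested only in the setting without it.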
